A study of Mus musculus with 34 samples.

Results

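Single mouse blastocysts carrying R442Q CHK1 were compared with blastocysts carrying WT CHK1 after both had developed in a CHK1 inhibitor. The comparison used 7 R442Q and 7 WT embryos, 14 of the 34 single-embryo libraries of the series, taken by the genotype, stage and inhibitor given in the labels. Both groups came from zygotes injected with CHK1 mRNA (WT sequence in the one, the R442Q mutant in the other), and both were grown to blastocysts in KSOM medium with 30 nM Chk1 inhibitor. No blastocyst without injected mRNA and none without inhibitor is in the set, so the effect of the inhibitor or of the injection cannot be read from it. The start and length of the inhibitor treatment are not given in the labels. The zona pellucida was removed, each embryo was lysed whole, and cDNA was made by SMART-seq2, cut with Tn5 and sequenced on a HiSeq X-10 from Nextera libraries. Mouse strain and sex are not given in the labels. Nothing in the labels says which embryos had the same mother, so p-values measure the spread between these 14 embryos. Other embryos of the same genotypes, labelled as untreated, were measured as zygotes (5 WT, 6 R442Q) and late 2-cell embryos (4 WT, 5 R442Q), and these serve only to show which genes differed at those stages.

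CHK1 is a kinase that ATR activates when DNA replication stalls or DNA is damaged, and it holds back entry into mitosis by restraining CDC25 phosphatases and CDK1. The blastocyst is the stage at which the embryo has formed an outer epithelium, the trophectoderm, around a fluid-filled cavity, and an inner cell mass that sorts into the epiblast and the primitive endoderm. The study's design sets embryos with WT and mutant CHK1 side by side and adds an inhibitor of the kinase to the blastocyst cultures, and the question taken up here is how alike the genotypes were once they had reached that stage.

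The deposited values are FPKM (fragments scaled to transcript length and library size), and differences are in log2 units after adding 1 to each FPKM, which makes those of low genes too small. WT embryos had between 9852 and 12191 genes at an FPKM of 1 or more (median 11685) and R442Q embryos between 8189 and 12182 (median 11561). Blastocyst depth in counts is unknown, and a relative depth recovered from the spacing of low values lay between 0.933 and 1.10 of the mean. WT 6 and R442Q 7 had the fewest genes of their genotypes, and the main values that move with them are also given without them. R442Q 7 also had 4.71% of its summed FPKM in mitochondrially encoded genes, against at most 1.35% in the other 13 embryos. Depth, genes detected, summed FPKM, the share of the 50 highest genes, and the mitochondrial and ribosomal protein shares did not pass an exact two-sided permutation test between genotypes (adjusted p 0.715 to 0.901 over 6 tests). The share of summed FPKM in protein-coding genes, looked at later and not tested, was 79.9% to 82.3% in WT embryos (median 81.6%) and 69.6% to 80.2% in R442Q embryos (median 78.4%). It was lowest in R442Q 7, R442Q 4 and R442Q 3. Because this share was almost separate between the genotypes, the fits below with it as a covariate can hardly tell it apart from genotype.

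The injected gene did not differ between the genotypes beyond the spread between embryos. Chek1 (ENSMUSG00000032113.16, chr9:36708482-36727065, minus strand) stood at an FPKM of 7.05 to 38.3 in WT embryos (median 19.4) and 13.3 to 23.6 in R442Q embryos (median 18.5). All 7 R442Q embryos lay inside the WT range, with WT 4 the highest and WT 6 the lowest of the 14. The log2 difference of R442Q minus WT was -0.04 (exact two-sided permutation p 0.913; 95% interval from limma -0.73 to 0.66). Its spread between embryos was an SD of 0.78 log2 units in WT and 0.25 in R442Q. In the separate tables of the earlier stages, mean Chek1 FPKM was 6034 in WT and 6321 in R442Q zygotes and 431 and 524 in late 2-cell embryos, far above the blastocyst level. Gene-level values do not separate injected from endogenous mRNA, nor the mutant from the WT sequence, and the labels' genotypes could therefore not be checked from Chek1.

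Correlations between embryos of different genotype differed from those within a genotype by less than their spread over pairs. Over the 11297 genes tested, the Pearson correlation of log2(FPKM + 1) was 0.881 ± 0.039 between pairs of WT embryos (SD, 21 pairs), 0.875 ± 0.044 between pairs of R442Q embryos (21 pairs) and 0.873 ± 0.044 between embryos of different genotype (49 pairs). Spearman's values were 0.847, 0.833 and 0.835. These are descriptions across genes, since each embryo enters many pairs and genes are not independent replicates, and over all genes they follow mainly how abundant each gene is. The nearest embryo was of the other genotype for 5 of the 14, namely WT 2 and R442Q 2, 3, 5 and 6. Every embryo had more possible neighbours of the other genotype than of its own, and all WT embryos but WT 2 were nearest to a WT embryo. R442Q 7 stood apart from both groups, with a mean correlation of 0.784 with WT and 0.811 with the other R442Q embryos. Without WT 6 and R442Q 7 the 3 Pearson values were 0.897, 0.900 and 0.894. The genotype means correlated at 0.974 across genes, and 8062 genes (71.4%) differed by less than 0.5 log2 units.

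**Figure D1:**
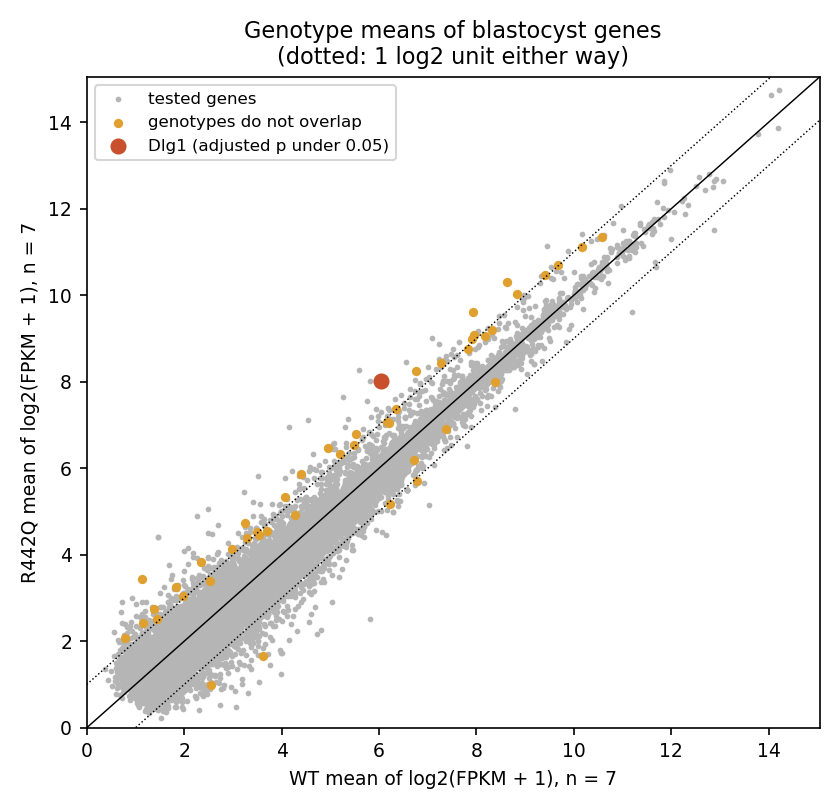
Mean log2(FPKM + 1) of the 7 WT blastocysts (horizontal axis) and the 7 R442Q blastocysts (vertical axis) for the 11297 tested genes, each point 1 gene. The solid line marks equal means and the dotted lines 1 log2 unit either way; most points follow the line, and the 47 genes whose genotypes do not overlap lie mostly above it.

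The number of genes that separated the genotypes was small. With limma, 1 of 11297 genes passed an adjusted p of 0.05 (0.00885% of the genes tested; 0 to 30 when 1 embryo was left out, with 30 without WT 7), and 836 (7.4%) had an unadjusted p under 0.05, 484 of them higher (4.28%) and 352 lower (3.12%) in R442Q. That balance turned to 413 higher and 461 lower when columns were rescaled without mitochondrial genes, to 574 and 598 with embryo weights and to 451 and 508 without WT 6. It moved the other way, to 506 higher and 223 lower, without R442Q 7, to 434 and 214 without WT 5 and to 342 and 93 with the protein-coding share as a covariate. Genotypes did not overlap at all for 47 genes (0.416%), 40 of them higher in R442Q (0.354%) and 7 lower (0.062%). A log2 difference of at least 1 in either direction was seen for 715 genes (6.33%). On simulated data of the same size, the fit recovered 21% of 2-fold and 77% of 4-fold changes, so many smaller differences would have gone uncalled. The 95% interval lay within 1 log2 unit either way for 3992 genes (35.3%), with a median SE of 0.40. For the other genes the interval reached a 2-fold difference or more, and likeness of the genotypes is not shown.

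The gene past the threshold was Dlg1 (ENSMUSG00000022770.17, chr16:31663443-31875129, plus strand), which encodes a PDZ-domain scaffold protein of the basolateral side of epithelial junctions. Its FPKM was 48.5 to 94.7 in WT blastocysts (median 61.7) and 133 to 448 in R442Q blastocysts (median 252). Every R442Q embryo lay above every WT embryo, with R442Q 4, 7 and 2 the highest and R442Q 1 and 6 nearest to the WT range. The log2 difference was 1.99 ± 0.29 (SE; 95% interval 1.38 to 2.59; limma adjusted p 0.027). Leaving out 1 embryo at a time kept it between 1.86 and 2.15. The adjusted p was above 0.05 in 10 of those 14 fits, at 0.115 without both WT 6 and R442Q 7, and at 0.9998 with the protein-coding share as a covariate, where the log2 difference was 1.47. Over the settings that kept all 14 embryos it ranged from 0.011 to 0.9998. The share was almost separate between the genotypes, so the fit with it as a covariate can hardly tell it apart from genotype. The share's part in the result was not tested further.

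Dlg1 has several transcripts with different starts, and its FPKM depends on the transcript lengths that reads are assigned to. In zygotes the genotypes were level (log2 0.01 by edgeR on counts). In late 2-cell embryos mean FPKM was 16.7 in WT and 66.2 in R442Q, while mean counts scaled to library size (CPM) were 21.5 and 37.2. Medians were 16.6 and 64.95 in FPKM and 22.5 and 29.0 in CPM. The edgeR log2 difference was 0.88 (adjusted p 0.329). The transcript length implied by the count, the FPKM and the library total had a median of 1159 bases in the WT and 483 bases in the R442Q late 2-cell embryos, against 2642 and 2561 bases in zygotes. In blastocysts only FPKM was used, so this length could not be computed there, and how far read assignment enters the blastocyst difference was not tested. Dlg1 also overlaps Gm49705 and Gm49712 on its own strand and Gm24879 and Gm49713 on the opposite strand, and the values do not say how shared reads were assigned.

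Dlg1 was matched to 4 start windows in the RefSeq promoter table (GRCm38.p6; 250 bases before to 50 after each start), and 2 are shown because they differ most in base composition. Capitals mark the GC box searched, GGGCGG or CCGCCC on the other strand, which is known as a binding element of SP-family factors. Window 1 (chr16:31663685-31663984, plus strand) is 71% G or C, with 27 CpG dinucleotides and 2 GC boxes, and window 4 (chr16:31754100-31754399, plus strand) is 33.7% G or C, with 4 CpG dinucleotides and none. Window 2 holds 1 GC box and window 3 none. Of all 27025 genes in the table, 38.2% hold the GC box in a window. Both sequences run from 5′ to 3′.
Dlg1 window 1: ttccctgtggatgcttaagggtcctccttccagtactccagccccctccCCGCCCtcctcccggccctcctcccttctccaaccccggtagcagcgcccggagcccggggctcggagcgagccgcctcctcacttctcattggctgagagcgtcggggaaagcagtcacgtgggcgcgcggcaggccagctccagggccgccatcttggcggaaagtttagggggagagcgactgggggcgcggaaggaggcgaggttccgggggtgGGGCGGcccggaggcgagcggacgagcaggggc
Dlg1 window 4: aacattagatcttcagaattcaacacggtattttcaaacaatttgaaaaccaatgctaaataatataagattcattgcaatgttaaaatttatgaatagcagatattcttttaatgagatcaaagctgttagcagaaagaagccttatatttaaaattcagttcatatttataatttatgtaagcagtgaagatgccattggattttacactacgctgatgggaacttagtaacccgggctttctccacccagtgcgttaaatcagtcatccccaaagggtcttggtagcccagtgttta
These letters describe the starts only, since the FPKM of the gene is not divided among them.

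Behind Dlg1 the genes with the smallest p were also higher in R442Q. Arhgap31 (chr16:38598340-38713274), a GTPase-activating protein for CDC42 and RAC1, stood at 22.5 to 44.2 FPKM in WT (median 28.9) and 63.1 to 171 in R442Q (median 73.0). The groups did not overlap, and R442Q 4 was the highest embryo. The log2 difference was 1.52 ± 0.24 (SE), and the limma adjusted p of 0.051 missed the threshold. It passed when low genes were filtered more strictly (0.035), with TMM scaling (0.044), with embryo weights (0.021) and with genes detected as a covariate (0.040), and reached 0.9998 with the protein-coding share as one. Gm44791, which has no match in the annotation, differed by 1.45 (adjusted p 0.069). Gm26460 and Gm25534, short annotated microRNA genes, differed by 1.79 and 1.67 (adjusted p 0.069 each). Of their 50-base stretches 57.1% and 100% occur in other genes, so the source of their reads is uncertain.

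Genes lower in R442Q did not reach the threshold. Adsl, an enzyme of purine synthesis, stood at 83.1 to 162 FPKM in WT (median 103) and 22.7 to 77.9 in R442Q (median 52.9). Its genotypes did not overlap, and its log2 difference was -1.08 (limma adjusted p 0.143). Thap3, which encodes a zinc-finger protein, did not overlap either, at 7.27 to 16.6 FPKM in WT (median 11.8) and 0 to 6.90 in R442Q (median 3.42), a log2 difference of -1.96 (adjusted p 0.164). Hdhd5 (-2.02, adjusted p 0.151) and Manba (-2.57, 0.164), a lysosomal mannosidase, overlapped between genotypes.

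The genes that leaned higher in R442Q held many noncoding and short transcripts. Of the 40 that were higher without overlap, 39 had an annotated type and 21 were protein coding (53.8%, against 88.3% of all genes tested). Of the 163 tested genes with an exonic length of at most 200 bases, 34 (20.9%) had an unadjusted p under 0.05, 33 of them higher, and their median log2 difference was 0.49. For 690 long noncoding or unclassified transcripts these values were 16.2% and 0.15, and for 9679 protein-coding genes 6.37% and -0.12. The median over all genes was -0.10, and it was 0.0013 without R442Q 7, -0.04 without WT 6 and R442Q 7 and 0.17 with the protein-coding share as a covariate. Short genes made up 5.43% to 7.85% of summed FPKM in WT and 6.96% to 9.98% in R442Q embryos, so the groups overlapped. This moved with the lower protein-coding share described above, and its part in the single-gene differences was not tested beyond the fit with that share as a covariate. In that fit 435 genes had an unadjusted p under 0.05 and 0 passed the limma adjustment.

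**Figure D2:**
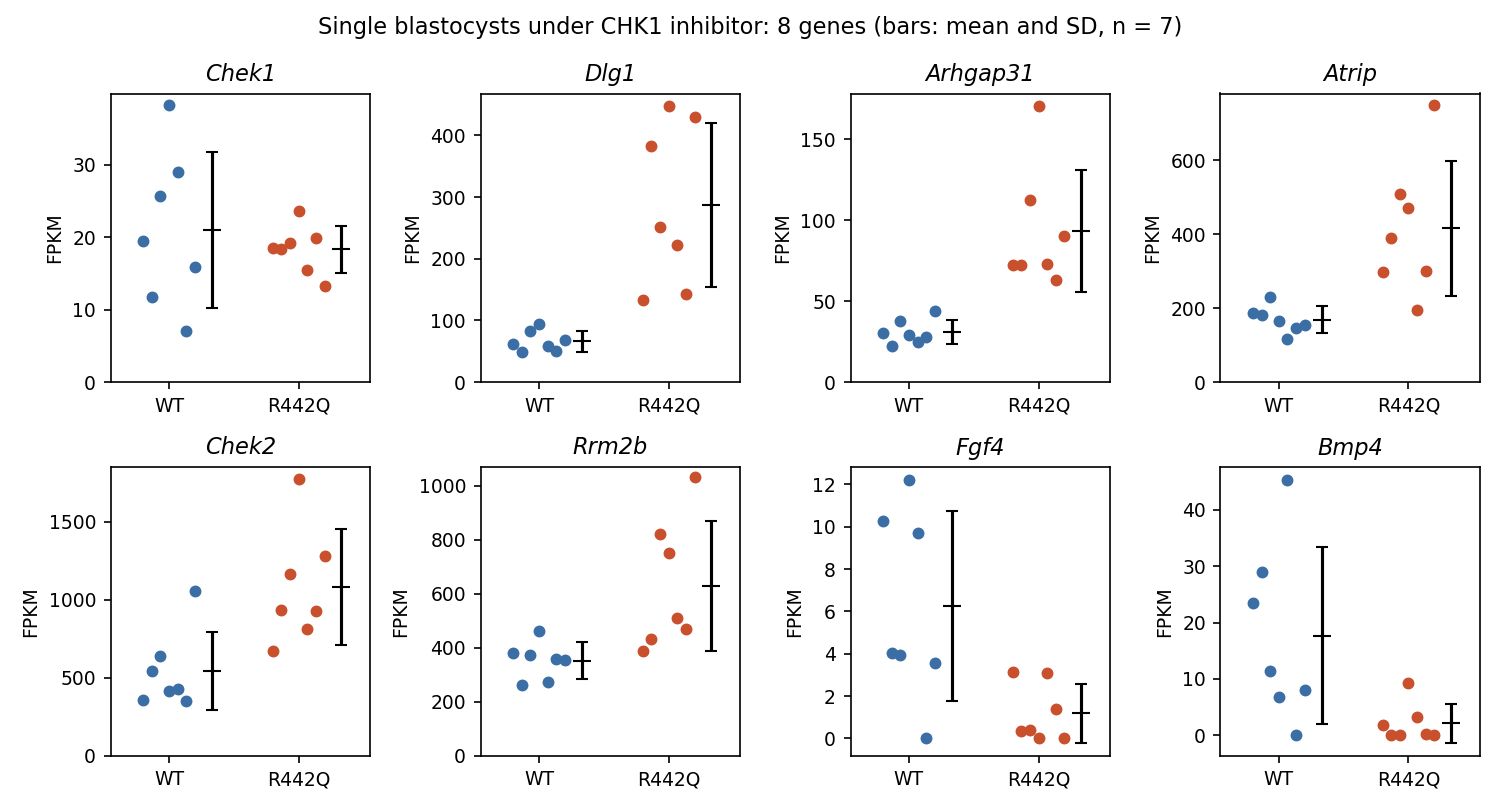
FPKM of 8 genes in each of the 7 WT and 7 R442Q blastocysts, with the mean and SD beside the points. Chek1 overlaps throughout, Dlg1 and Arhgap31 do not overlap, and Atrip, Chek2, Rrm2b, Fgf4 and Bmp4 lean to one side with overlap.

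All 3 blastocyst lineages were detected in both genotypes, and none of their marker genes passed the test. Of 19 trophectoderm markers 18 were tested and 0 called, with 4 above and 14 below 0 and a median log2 difference of -0.42. Of 18 epiblast markers 17 were tested and 0 called, with 1 above and 16 below 0 and a median of -0.61. Of 21 primitive endoderm markers 16 were tested and 0 called, with 4 above and 12 below 0 and a median of -0.18. At an unadjusted limma p under 0.05 there were 0, 2 and 1 markers, and all 3 were lower in R442Q. Over all genes 7.4% had such a p (3.12% lower), 40.7% were above 0 and the median was -0.10. Without WT 6 the 3 medians were -0.30, -1.14 and -0.67 (-0.13 over all genes), and without R442Q 7 -0.52, -0.22 and -0.10 (0.0013 over all genes). Without both embryos they were -0.47, -0.70 and -0.20 (-0.04 over all genes). With the protein-coding share as a covariate the 3 medians were 0.07, -0.03 and -0.03, against 0.17 over all genes. In whole-embryo RNA, fewer cells of a lineage and less RNA per cell cannot be told apart.

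The mean level over each list gave the balance of lineages embryo by embryo, in log2(FPKM + 1). For the trophectoderm list it was 6.14 ± 0.60 in WT and 5.78 ± 0.88 in R442Q (SD, n = 7 each), a difference of -0.36. The lowest value, 4.12, belonged to R442Q 3, and without that embryo the difference was -0.08; without WT 6 and R442Q 7 it was -0.23. For the epiblast list it was 5.09 ± 1.34 in WT and 4.34 ± 1.07 in R442Q, a difference of -0.75. WT ranged from 2.39 to 6.32 and R442Q from 2.30 to 5.21, so the ranges overlapped, with WT 5, 4, 1 and 7 above every R442Q embryo. This difference was -1.20 without WT 6, -0.41 without R442Q 7 and -0.86 without both. For the primitive endoderm list it was 3.62 ± 1.07 in WT and 3.20 ± 1.17 in R442Q, a difference of -0.42, from -0.15 without R442Q 7 to -0.72 without WT 6 and -0.44 without both. The epiblast level minus the trophectoderm level was -1.06 ± 1.8 in WT and -1.45 ± 1.5 in R442Q, a difference of -0.39. That difference ran from -0.95 (without WT 6) to -0.06 (without WT 5) and was -0.64 without both WT 6 and R442Q 7. These list means carry no test.

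**Figure D3:**
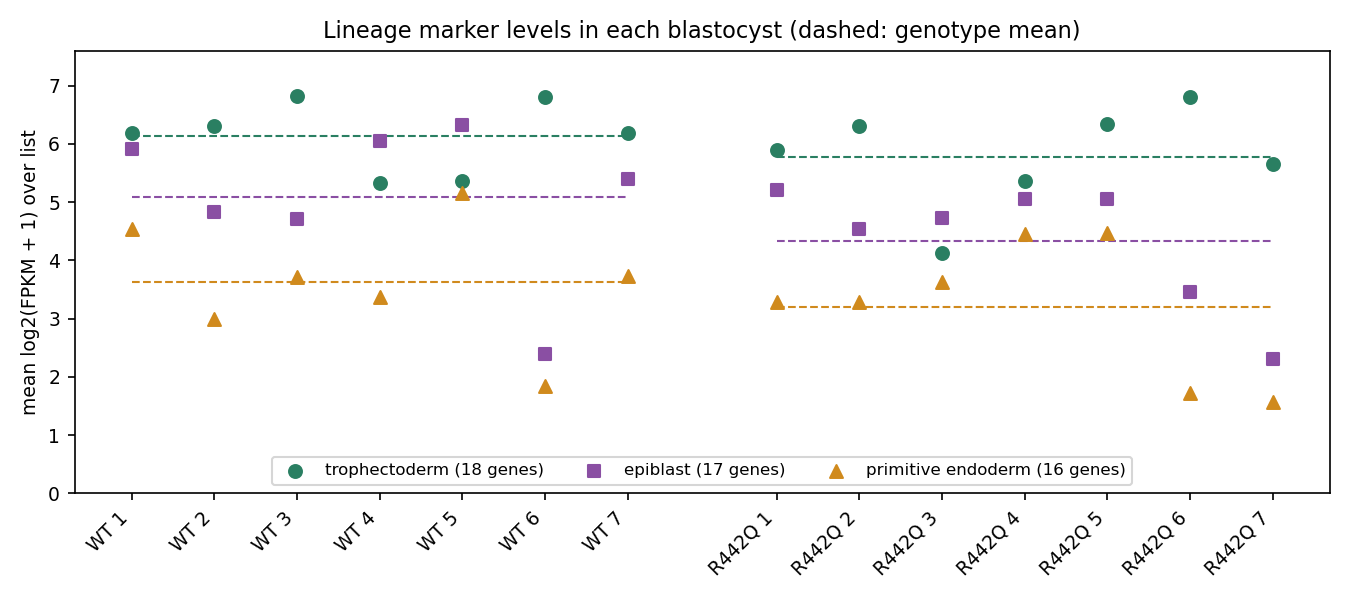
Mean log2(FPKM + 1) over the tested trophectoderm (18 genes), epiblast (17) and primitive endoderm (16) markers in each blastocyst, with dashed lines at the genotype means. Epiblast and primitive endoderm levels are lowest in WT 6, R442Q 6 and R442Q 7, and the epiblast level exceeds the trophectoderm level in WT 4, WT 5 and R442Q 3.

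In these list means, embryos of 1 genotype differed from each other by more than the genotype means did. WT 6, R442Q 6 and R442Q 7 had trophectoderm levels of 6.81, 6.81 and 5.65 but epiblast levels of 2.39, 3.46 and 2.30 and primitive endoderm levels of 1.85, 1.72 and 1.56. In these 3 embryos 8, 3 and 8 of the 17 epiblast markers and 10, 9 and 10 of the 16 primitive endoderm markers were under an FPKM of 1. The opposite pattern, an epiblast level above the trophectoderm level, was seen in WT 4, WT 5 and R442Q 3. With list medians the WT average of epiblast minus trophectoderm was -0.06, against -1.06 with list means. Which embryos show this pattern may therefore change with the summary used. The second pattern thus occurred in each genotype. The first was seen in WT in WT 6 alone, and WT 6 and R442Q 7 are the embryos with the fewest genes of their genotypes. R442Q 7 also had the highest mitochondrial share (4.71%) and 3 of the 18 trophectoderm markers under an FPKM of 1. Without both, the first pattern was seen in R442Q 6 only, and the part of library quality in it was not tested.

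Among trophectoderm genes, the lineage factor Cdx2 stood at 7.47 to 51.0 FPKM in WT (median 12.3) and 0.21 to 26.6 in R442Q (median 13.0), a log2 difference of -0.93 (limma adjusted p 0.815). R442Q 7 was the lowest, and R442Q 4 (2.32) and R442Q 3 (4.74) were also below every WT embryo. WT 6 was the highest, and the remaining embryos were mixed. The difference was -0.46 without R442Q 7 and -0.19 without WT 6 as well, and turned to 1.11 with the protein-coding share as a covariate. Gata3, a transcription factor of the same lineage, had medians of 258 in WT and 280 in R442Q (-0.13, but 0.32 with that covariate and 0.18 without R442Q 3). Eomes, a T-box factor, had medians of 7.42 and 11.98 (0.36, and 0.20 without R442Q 7). The epithelial keratin Krt8 ranged from 1300 to 11565 in WT (median 2540) and from 505 to 4485 in R442Q (median 1909), a log2 difference of -0.90 (adjusted p 0.733). WT 2 was far above the rest, and the difference was -0.59 without it; R442Q 3 was the lowest. Its partner Krt18 differed by -0.69, and by -0.34 without R442Q 3.

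Among epiblast genes, the pluripotency factor Pou5f1 stood at 53.2 to 231 FPKM in WT (median 124) and 7.99 to 211 in R442Q (median 118), a difference of -0.59. R442Q 7 alone was under 10, and without it the difference was -0.07 (-0.26 without WT 6 as well). With the protein-coding share as a covariate it turned to 0.25. Nanog, another core pluripotency factor, stood at 47.4 to 166 (median 84.5) and 30.1 to 107 (median 65.8), a difference of -0.51, and Sox2 had medians of 5.45 and 1.44 (-0.85). Fgf4, the growth factor by which epiblast cells induce primitive endoderm, stood at 0 to 12.2 in WT (median 4.04) and 0 to 3.12 in R442Q (median 0.40). All WT embryos but WT 6 were above every R442Q embryo, and WT 6 was listed at 0. The log2 difference was -1.61 ± 0.55 (SE; unadjusted p 0.0093, limma adjusted p 0.388), and -1.87 without WT 6 and R442Q 7 (adjusted p 0.185). Bmp4, a ligand made by the inner cell mass, stood at 0 to 45.3 in WT (median 11.4) and 0.05 to 9.28 in R442Q (median 0.17), a difference of -2.47 ± 0.75 (unadjusted p 0.0044, adjusted 0.282). R442Q 4 was the only R442Q embryo inside the range of the 6 higher WT embryos. Fgf4 and Bmp4 were the epiblast members under an unadjusted p of 0.05 and were singled out after their values were seen.

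The epiblast list also held genes of very different steadiness between embryos. Spp1, which encodes the secreted protein osteopontin, ranged from 2.09 to 2769 FPKM in WT (median 1223) and 13.8 to 1190 in R442Q (median 482). Zfp42, a zinc-finger pluripotency marker, ranged from 94.8 to 138 in WT (median 122) and 64.2 to 161 in R442Q (median 108). Their promoters are shown because they are the epiblast markers, 2 of 13 matched, with the octamer in a start window (15.4%). The octamer, ATGCAAAT or ATTTGCAT on the other strand, is the known element of POU-family factors such as POU5F1 and is in capitals. It occurs in 532 of 27025 genes of the RefSeq table (1.97%), in 2 of 15 trophectoderm markers (Cdx2 and Tspan8) and in 1 of 13 primitive endoderm markers (Srgn). The Spp1 window is chr5:104435942-104436241 (plus strand) and the Zfp42 window chr8:43306960-43307259 (minus strand), both GRCm38.p6 and written 5′ to 3′.
Spp1 window 2: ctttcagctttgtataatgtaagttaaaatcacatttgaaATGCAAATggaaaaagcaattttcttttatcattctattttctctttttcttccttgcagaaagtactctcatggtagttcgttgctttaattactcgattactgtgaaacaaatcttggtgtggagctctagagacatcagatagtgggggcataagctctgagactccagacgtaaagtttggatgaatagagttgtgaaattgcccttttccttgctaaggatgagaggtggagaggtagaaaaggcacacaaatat
Zfp42 window 1: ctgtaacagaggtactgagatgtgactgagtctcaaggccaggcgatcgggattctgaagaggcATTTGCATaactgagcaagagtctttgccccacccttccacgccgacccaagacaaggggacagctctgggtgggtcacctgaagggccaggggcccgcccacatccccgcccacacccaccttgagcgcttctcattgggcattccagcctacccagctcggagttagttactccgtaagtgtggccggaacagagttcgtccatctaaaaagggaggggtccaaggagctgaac
The Spp1 window holds ATGCAAAT and the Zfp42 window its reverse complement ATTTGCAT, while window 1 of Spp1 holds neither. A match of letters is not a measured binding site.

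Among primitive endoderm genes, the early factor Gata6 stood at 6.96 to 24.1 FPKM in WT (median 13.2) and 8.72 to 31.6 in R442Q (median 19.4), a difference of 0.40 (0.25 without WT 6). The later factor Gata4 was detected in some embryos of each genotype, at 0 to 19.0 in WT (median 4.02) and 0 to 13.8 in R442Q (median 0.03), with a difference of -0.76. It was above 10 in WT 1, WT 5, R442Q 4 and R442Q 5. Sox17 ranged from 1.69 to 166 in WT (median 17.9) and 0.09 to 39.3 in R442Q (median 2.27), a difference of -1.80 ± 1.0 (SE; limma adjusted p 0.746), and WT 5 and WT 1 were above all the others. The receptor gene Pdgfra had medians of 4.62 and 5.74 (-0.19, but 0.19 without R442Q 6). Lamc1, a laminin chain of the basement membrane, was the member under an unadjusted p of 0.05 (-1.10, p 0.044, adjusted 0.651). It was singled out after its values were seen.

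**Figure D4:**
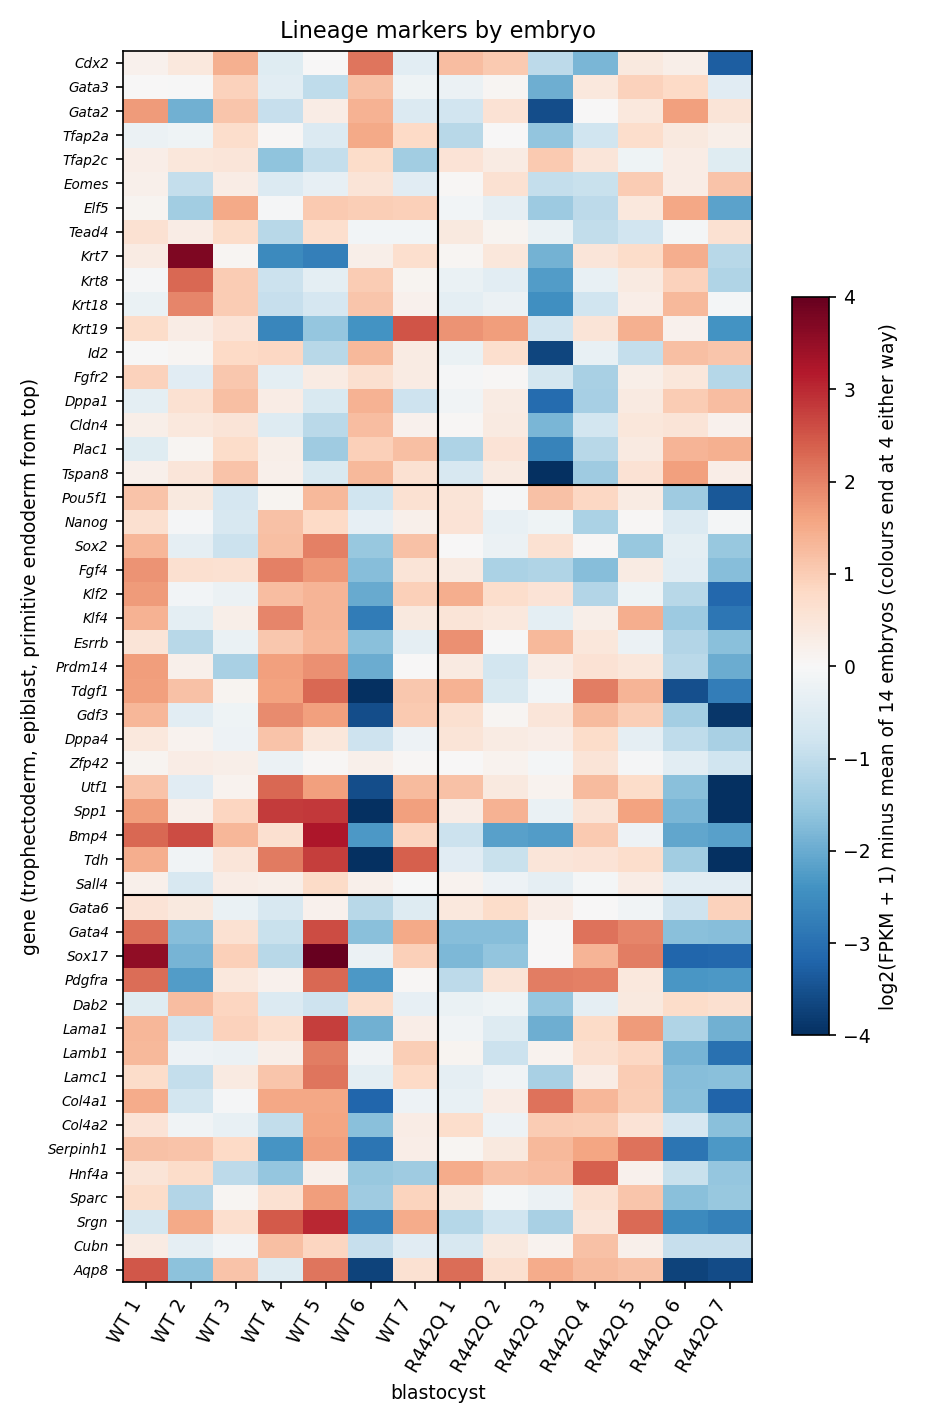
Levels of the 51 tested lineage markers in each blastocyst, as log2(FPKM + 1) minus the gene's mean over the 14 embryos, with colours ending at 4 either way. Within each genotype some columns are blue (low) through the epiblast and primitive endoderm blocks (WT 6, R442Q 6, R442Q 7), and R442Q 3 is blue through most of the trophectoderm block.

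Genes of junctions and cavity formation, which build the trophectoderm epithelium, otherwise showed little. Of 18 listed, 17 were tested and 1 was called, which was Dlg1, with 5 above and 12 below 0 and a median of -0.26 (40.7% above 0 and -0.10 over all genes). The list's median was -0.14 without WT 6, -0.21 without R442Q 7 and -0.16 without both. With the protein-coding share as a covariate it turned to 0.05, with 13 above and 4 below 0, against 0.17 over all genes. The embryonic cadherin gene Cdh1 had medians of 46.8 and 38.6 (-0.29), and the sodium pump subunit gene Atp1b1 medians of 66.6 and 68.2 (-0.30).

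Most of the p53 target list lay above 0, without a call. Of 25 genes 24 were tested and 0 called by limma, 3 had an unadjusted p under 0.05, and 18 were above and 6 below 0, with a median of 0.41. Over all genes tested, 7.4% had such a p, 40.7% were above 0 and the median was -0.10. Without WT 6 the list's median was 0.15 (-0.13 over all genes), with 16 of 23 above 0. Without R442Q 7 it was 0.42 (0.0013 over all genes), and without both embryos 0.44 (-0.04). With the protein-coding share as a covariate it was 0.32, against 0.17 over all genes. Cdkn1a, the CDK inhibitor p21, stood at 28.9 to 528 FPKM in WT (median 175) and 78.7 to 698 in R442Q (median 339), a difference of 0.78 (limma adjusted p 0.815). The genotypes overlapped widely, and the difference was 0.38 without WT 5. Mdm2, the p53 ubiquitin ligase, had medians of 29.0 and 48.6 (0.48), and Ccng1, cyclin G1, medians of 32.7 and 42.7 (0.59). Rrm2b, the p53-inducible ribonucleotide reductase subunit, stood at 263 to 460 in WT (median 359) and 389 to 1031 in R442Q (median 510). R442Q 1 and 2 fell inside the WT range and the other 5 lay above it, for a difference of 0.77 ± 0.22 (SE; unadjusted p 0.0029, adjusted 0.241). Btg2, an antiproliferative gene, differed by 1.01 (unadjusted p 0.041) and Gdf15, a secreted stress factor, by -1.25 (unadjusted p 0.013). These 3 were singled out after their values were seen.

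The checkpoint pathway to which CHK1 belongs showed both directions and no call in the main fit. All 26 genes were tested, 0 were called by limma, 4 had an unadjusted p under 0.05, and 12 were above and 14 below 0. The median of -0.11 was close to the -0.10 of all genes, of which 40.7% were above 0 and 7.4% had such a p. Without WT 6 the median was -0.24 (-0.13 over all genes), with 8 above and 18 below 0. It was -0.06 without R442Q 7 and -0.10 without both embryos. With the protein-coding share as a covariate it was 0.10, with 16 above and 10 below 0, against 0.17 over all genes. Atrip, the partner that brings ATR to single-stranded DNA, stood at 116 to 229 FPKM in WT (median 167) and 194 to 749 in R442Q (median 389). R442Q 5 was inside the WT range, and the other 6 were above it. The difference was 1.20 ± 0.25 (SE; unadjusted p 0.00018, limma adjusted p 0.118) and 0.57 with the protein-coding share as a covariate. Chek2, the kinase that acts downstream of ATM, stood at 348 to 1055 in WT (median 425) and 670 to 1776 in R442Q (median 935). WT 7 alone reached into the R442Q range, and the difference was 1.04 ± 0.26 (unadjusted p 0.00086, adjusted 0.164). Without WT 7 the Chek2 difference was 1.21 and passed the limma threshold, in the fit that called 30 genes. Topbp1, which activates ATR, differed by 0.78 (unadjusted p 0.020) and Atr itself, at medians of 3.07 and 1.27, by -0.87 (unadjusted p 0.014). Atrip, Chek2, Topbp1 and Atr were singled out after their values were seen. Among targets of the pathway, Cdc25a differed by 0.40, the kinase gene Wee1 by 0.0024, Cdk1 by -0.56 and Ccnb1 (cyclin B1) by -0.18, all with limma adjusted p above the threshold. Without WT 6 these were 0.21 for Cdc25a, -0.33 for Wee1 and -0.03 for Ccnb1, and without R442Q 7 Cdk1 was -0.33 (-0.40 without both).

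Other lists gave no call either, and their counts stand against 40.7% above 0 and a median of -0.10 over all genes tested. Of 22 mitosis genes, all tested, 21 were below 0 with a median of -0.23. Without R442Q 7 these were 14 and -0.08 (50.1% above 0 over all genes), and without WT 6 and R442Q 7 they were 11 and -0.0046, so the list's lean was not seen without these embryos. Incenp, a subunit of the chromosomal passenger complex, had the smallest p of the list (-0.65, limma unadjusted p 0.055). Of 26 apoptosis genes 18 were tested, 9 on each side of 0, and Bad, a BH3-only gene, differed by 0.55 (unadjusted p 0.016). Of 18 stress response genes 15 were tested, and 13 were below 0 with a median of -0.32. Without R442Q 7, 11 were below 0 with a median of -0.14, and without both WT 6 and R442Q 7 the median was -0.23. Of 18 genes that mark the 2-cell stage 1 (Sp110) was tested, and 7 were listed at 0 in every embryo. Sp110 stood at 5.93 to 120.0 FPKM in WT (median 14.1) and 9.23 to 37.3 in R442Q (median 17.3), a difference of 0.11. Among the others the highest value was 9.07, for Duxf3 in WT 2. Of 20 oocyte genes 3 were tested (Ooep, Tle6 and Khdc3). The 13 cumulus and granulosa markers were near 0, with summed FPKM of 0 to 2.14 in WT and 0.12 to 3.57 in R442Q.

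Spread between embryos was large and similar in the genotypes. The median SD of log2(FPKM + 1) was 0.669 in WT and 0.742 in R442Q, larger in R442Q for 54.7% of genes. Without R442Q 7 it was 0.574 in R442Q, larger than in WT for 37.7% of genes. Without both WT 6 and R442Q 7 it was 0.604 and 0.574, so which genotype varied more turned on single embryos. The stages were deposited in separate tables that list different sets of genes, so levels and spreads across them are set side by side without a test. Over the 7402 genes shared by the 3 stages, the median SD was 0.593 and 0.659 in WT and R442Q blastocysts, against 0.297 and 0.315 in zygotes. At the late 2-cell stage it was 0.475 and 0.651. The first principal component carried 28.1% and the second 13.6% of the variance. The first was led by R442Q 7, at 163 against -49.4 to 32.2 in the other 13 embryos, and the second by WT 6, at -101.

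Several of the most variable genes were on in some embryos and off in others of the same genotype. Nupr1, a stress-induced chromatin protein, was 195.7 to 537 FPKM in WT 3, 4, 5 and 7 and 120 and 129 in R442Q 5 and 6. It was at most 10.6 in the other 8 embryos, for a difference of -3.30 ± 1.44 (SE; limma adjusted p 0.632). BC051665 ranged from 5.35 to 382 in WT (median 194) and 0.84 to 1347 in R442Q (median 85.7), with R442Q 5 and 6 again the highest. AY036118, Gm28661, Rps6-ps4, Gm10221, Gm25190 and Gm23840 also varied most, and 63.0% to 100% of their 50-base stretches lie in other genes, so their reads cannot be assigned with certainty.

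Y-linked genes split the embryos within each genotype. Ddx3y was 7.85 to 16.1 FPKM in WT 2, 3, 5 and 7 and R442Q 4, 5 and 6, and at most 0.07 in the other 7. Xist, the RNA of the inactive X chromosome, was 4.10 to 40.2 in those 7 without Ddx3y and at most 1.81 in the 7 with it. The genotypes thus held 4 and 3 embryos with Y-linked RNA, and with the Y-linked level as a covariate limma called 0 genes (744 at an unadjusted p under 0.05).

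Genes that differed between the genotypes in the untreated zygotes and late 2-cell embryos were then looked up in the blastocysts, which were other embryos. In zygotes edgeR called 1643 of 12420 genes (13.2%), 783 higher (6.3%) and 860 lower (6.92%) in R442Q, and in late 2-cell embryos 580 of 13883 (4.18%), 170 higher (1.22%) and 410 lower (2.95%). The late 2-cell genes called higher numbered 8 with the replicate number as a block. These numbers come from the sample titles, are not given as pairs and differ from the submitters' own numbers for some embryos. Leaving out 1 late 2-cell embryo gave 93, 23, 49 and 60 without WT 1, 2, 3 and 4. It gave 140, 95, 376, 106 and 147 without R442Q 1, 2, 3, 4 and 5. Of the zygote genes 474 higher and 724 lower ones were tested in blastocysts, and 0 passed. At an unadjusted limma p under 0.05 there were 21 (4.43%) and 31 (4.28%), against 6.33% of all 8193 genes tested at both stages, and the median blastocyst differences were -0.14 and -0.14. The zygote differences thus left no larger share in blastocysts than genes at large. Igf2bp1, an RNA-binding protein gene that rose in R442Q zygotes by 3.96 log2 units, stood at 14.8 to 64.5 FPKM in WT (median 28.8) and 4.52 to 48.6 in R442Q blastocysts (median 18.4). Snhg14, a noncoding host transcript that fell by 2.09, stood at 47.6 to 153 (median 83.8) and 72.9 to 180 (median 115). Nagk, a sugar kinase that fell by 2.04, had medians of 93.8 and 92.0, and both genes overlapped between genotypes. R442Q 5 and 7 were above every WT embryo for Snhg14, and WT 1, 5 and 7 below every R442Q embryo.

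The 170 genes called higher in R442Q late 2-cell embryos, a set whose size varied widely between fits, held a larger share at a low blastocyst p than genes at large. Of the 170, 135 were tested in blastocysts and 0 passed the limma adjustment, but 35 (25.9%) had an unadjusted p under 0.05, against 611 (6.66%) of the 9171 genes tested at both stages. Of these 35, 33 were higher in R442Q again and 2, Tspan15 and Gapdh, were lower. The median over the 135 was 0.08, against -0.11 over all, and 80 of the 135 were above 0 (59.3%). The mean level of the 135 genes was 6.10 to 6.49 in WT and 6.46 to 6.68 in R442Q embryos, with WT 4 inside the R442Q range and WT 3 at its lower edge. Of the 368 tested genes that were lower in late 2-cell embryos, 15 (4.08%) had an unadjusted p under 0.05, 14 lower and 1 higher.

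Examples among the 33 were named after their values were seen. Trpm2, a calcium-permeable channel, stood at 256 to 330 FPKM in WT and 350 to 1174 in R442Q blastocysts, a difference of 0.88 ± 0.23 (SE; limma adjusted p 0.186). Zan, which encodes the sperm protein zonadhesin, stood at 199 to 287 in WT and 320 to 1414 in R442Q, a difference of 1.08 ± 0.28 (adjusted p 0.186). Neither gene overlapped between genotypes, and R442Q 7 and R442Q 3 were the highest embryos for both. Protein-coding genes made up 22 of the 33 (66.7%), against 119 of the 135 (88.1%). The count of 35 became 29 to 39 when 1 embryo was left out, and 29 of the 133 genes then tested were under that p without WT 6 and R442Q 7. With the protein-coding share as a covariate, 6 of the 135 (4.44%) were under it, against 3.85% of all genes. In that fit the median over the 135 was 0.15, against 0.17 over all genes, and genes at large with such a p fell from 836 to 435. The share was almost separate between the genotypes, so the fit can hardly tell it apart from genotype, and its part in these values was not tested.

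**Figure D5:**
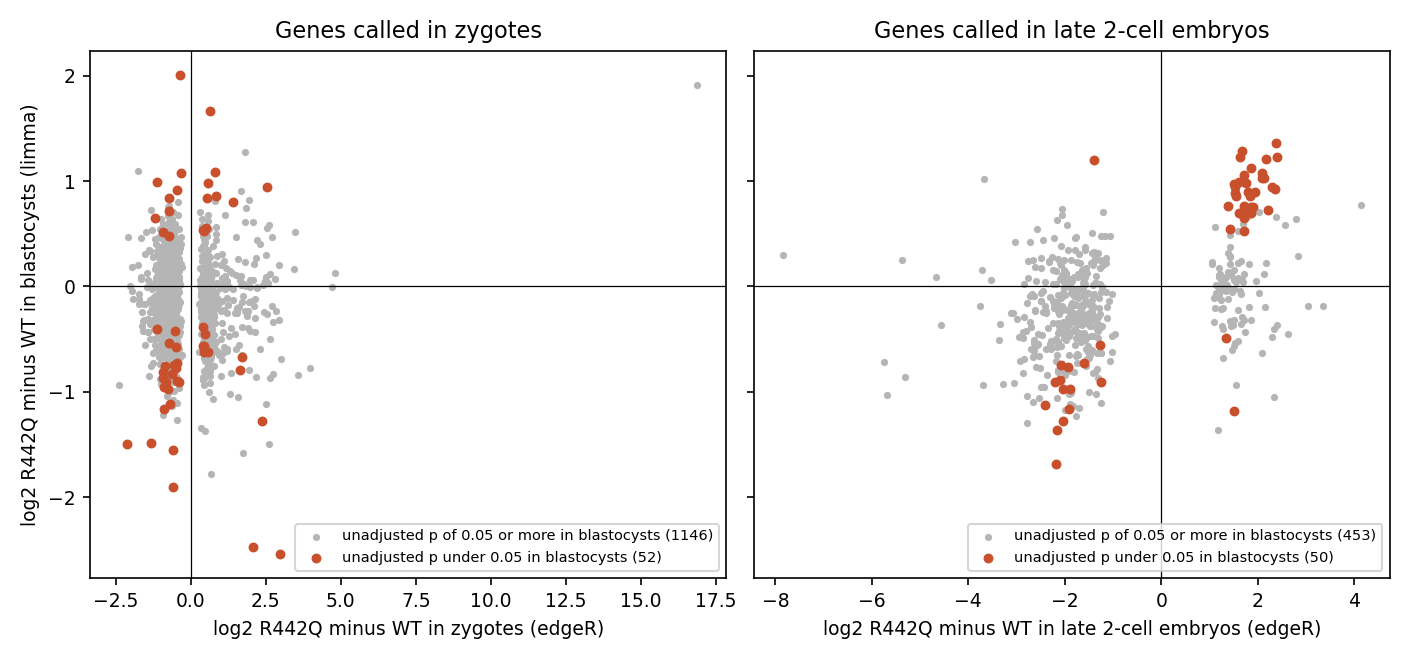
Log2 difference of R442Q minus WT in blastocysts (vertical axis, limma) against that in zygotes (left) and late 2-cell embryos (right; horizontal axes, edgeR), for genes called at the earlier stage and tested in blastocysts. Red points have an unadjusted blastocyst p under 0.05: 52 of the zygote genes fall on all sides, while 33 of the 50 red late 2-cell genes lie in the upper right quadrant.

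The genes with the largest late 2-cell changes overlapped between the genotypes in blastocysts. Dmkn, a gene of epithelial differentiation that rose by 3.36 at the late 2-cell stage, stood at 1.45 to 148 FPKM in WT blastocysts (median 32.2) and 0.23 to 99.9 in R442Q (median 38.3). Cyb561, a cytochrome gene that fell by 5.74, had medians of 7.8 and 5.72, and Apba3, an adaptor gene that fell by 5.69, medians of 49.4 and 34.0. Both were near 0 in R442Q 7 and present in the other 13 embryos. Ddx54, an RNA helicase gene that fell by 3.76, had medians of 19.9 and 17.1. Of the other large early changes, Gamt (fell in zygotes by 2.13), an enzyme of creatine synthesis, had blastocyst medians of 12.2 in WT and 5.72 in R442Q. Mtx2, a mitochondrial outer membrane gene that fell in zygotes, had medians of 86.1 and 102. Tmem37 and Cisd3, which rose in late 2-cell embryos, had medians of 15.2 and 22.6 and of 11.2 and 19.6. Gm26917 and Gm5662, which rose in zygotes, had medians of 165.6 and 267 and of 0.89 and 2.69, and Gm29216, which fell in late 2-cell embryos, of 358 and 190.3. Other genes hold 77.9% of the 50-base stretches of Gm5662 and 97.1% of those of Gm29216, so both are uncertain.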

How the data were processed

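FPKM of 14 single blastocysts was analysed as the authors deposited it, and so were the estimated counts per gene of zygotes and late 2-cell embryos. RSEM and the build mm10 are named in the submitters' processing notes; aligner and annotation are not given in the sources used here. Samples were grouped by title and labels. Members and gene lists were chosen with earlier results of these data known. Blastocyst genes with an FPKM of 1 or more in 7 or more embryos were tested with limma 3.58.1 (variance trend, log2 with a pseudocount of 1, two-sided, Benjamini-Hochberg threshold 0.05). Counts were rounded and tested with edgeR 4.0.16 in R 4.3.3 (quasi-likelihood, filterByExpr, TMM); DESeq2 1.42.0 was an alternative. Total counts were 7183632 to 11296522 in zygotes and 5727955 to 8916343 in late 2-cell embryos. The relative depth of blastocysts, recovered from the steps between low FPKM values, was off by at most 2.45% in zygotes and 14.7% in late 2-cell embryos. Fits were tested on simulated data.

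Named genes were Chek1, those past the threshold, the 5 smallest p-values in each direction (higher mean of at least 5 FPKM), the 8 most variable genes, defining lineage, p53 and checkpoint markers, the smallest p of each other list, the 4 largest early changes in each direction and stage, and sex-linked genes. A few genes that this rule names are not reported here. Most genes named after their values were seen are marked as such. Positions are GRCm38; 92.1% of 51734 symbols matched GENCODE M21. Alternatives covered pseudocount, filters, scaling, covariates, the replicate block and leaving out embryos.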

Additional observations from a re-analysis of the deposited data

Results flagged for a closer look

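In 156 sets of 7 blastocysts of 1 genotype (a gene or library measure each), 14 values stood apart by Dixon's ratio, which needs a gap to the nearest embryo above 0.568 of the whole range; chance gives about 1 in 20. R442Q 7 held 6 of the 14. It had the fewest genes at an FPKM of 1 or more (8189) and the highest mitochondrial share (4.71%). Its FPKM was the highest for Topbp1 (250.9) and Gm29216 (2390) and the lowest for Cyb561 (0.11) and Apba3 (0.04).

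WT 6 held 4 values. Its FPKM was the lowest for Fgf4 (listed at 0) and Wee1 (0.49) and the highest for Ccnb1 (599), and its mean epiblast level was the lowest of WT (2.39 in log2(FPKM + 1)). The other 4 values were Gm25534 in WT 5 (97.8, lowest), Incenp in WT 4 (10.2, lowest), Sp110 in WT 2 (120.0, highest) and Mtx2 in R442Q 5 (54.8, lowest), all in FPKM.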

How the results depend on the processing

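Blastocyst calls numbered 0 without the filter on low values, without the variance trend and with the Y-linked level as a covariate, 2 at an FPKM of at least 5, 3 with TMM scaling, and 5 each with embryo weights and with genes detected as a covariate, against 1. Leaving out 1 embryo gave 0 to 30 (30 without WT 7, 2 without R442Q 1). Choices added after seeing the data (without WT 6 and R442Q 7, the protein-coding share as a covariate) gave 0 each; with the share, 435 rather than 836 genes had an unadjusted p under 0.05, and 6 rather than 35 of the late 2-cell genes. Of the 836, 57.9% were higher in R442Q, against 47.3% when columns were rescaled without mitochondrial genes.

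Deviations of same-numbered blastocysts from their genotype means correlated at r -0.17 to 0.20. For WT 5 and WT 6 the best R442Q partner had the same number, and for the other WT blastocysts it did not. The numbers come from the sample titles, are not given as pairs and differ from the submitters' own numbers for some earlier embryos. With the replicate number as a block, blastocysts gave 0 calls (890 at an unadjusted p under 0.05), zygotes 1217 and late 2-cell embryos 58. Late 2-cell calls were 1785 with DESeq2 and 889 without a filter, against 580, and 142 to 891 without 1 embryo (lowest without WT 2, highest without R442Q 3). Zygote calls were 1125 to 1718 without 1 embryo. Genotype differences in lineage levels moved by less than 1 SD (pooled over genotypes) with list medians, the other pseudocount and TMM, though with list medians the epiblast minus trophectoderm difference was -0.67 rather than -0.39 and the trophectoderm difference -0.23 rather than -0.36; the WT trophectoderm level itself was 5.32 as a median, against a mean of 6.14.

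Of 1167 values over 44 genes, 1099 kept their direction and side of the threshold, 37 over 8 genes changed direction, 16 (Dlg1) lost the call and 15 (5 genes) gained one. Chek1 turned to 0.0057 with TMM, 0.017 with genes detected and 0.11 with the protein-coding share, and lay between -0.25 and 0.13 without 1 embryo. With the protein-coding share, differences turned for Cdx2 (1.11), Gata3 (0.32), Pou5f1 (0.25), Pdgfra (0.023), Wee1 (-0.41) and Ccnb1 (0.0066). Without WT 6 and R442Q 7 they turned for Gata3 (0.12), Wee1 (-0.50) and Ccnb1 (0.054). Pdgfra was 0.083 with genes detected, and Wee1 was -0.048 without mitochondrial genes, -0.44 with embryo weights and -0.020 with the Y-linked level. Without 1 embryo, Gata3 lay between -0.32 and 0.18, Pdgfra between -0.58 and 0.19, Wee1 between -0.33 and 0.16 and Sp110 between -0.10 and 0.59. The cause was not tested.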
